A study of Sus scrofa with 9 samples.

Results

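The cell cycle and DNA replication genes described here are 40 genes named by symbol: the G1 cyclins and kinases, the inhibitor CDKN1A, the genes that license and fire replication origins, the replication fork and the polymerases, ribonucleotide reductase, the mitotic cyclins and kinases, the spindle checkpoint, and the spindle and chromosome genes with the proliferation marker MKI67. All 40 were found among the 25918 genes of the table, and 36 had a mean of at least 0.5 FPKM (sequenced fragments scaled to transcript length and library size) over the 9 libraries and were tested among 12584 such genes. The rule is a list of symbols and uses no measured value. Liver RNA was sequenced from 9 Wujin pigs, 1 library for each pig, 3 pigs for each of 3 diets. The study fed both sexes, with none given for a library, and all pigs were of this Chinese breed, 35 days old at the start, and had 5 days of prefeeding and 30 days of feeding on the same basal diet. To this diet iron glycinate was added to give 0 mg/kg of iron in the low-iron group, 100 mg/kg in the control group and 200 mg/kg in the high-iron group, so the low-iron diet still held the iron of its ingredients and the control is an iron-supplemented diet. The sequenced pigs were 3 drawn from the larger group on each diet. Libraries are named by group and by the number in their labels, which are 2, 3 and 7 for the low-iron, 4, 5 and 6 for the control and 2, 7 and 8 for the high-iron group, and values are given in that order.

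A dividing cell passes from growth (G1) into DNA synthesis (S phase) and, after a second gap (G2), into mitosis. D-type cyclins with CDK4 and E-type cyclins with CDK2 start the passage by freeing E2F transcription factors from the retinoblastoma protein, and E2F then turns on genes for origin licensing, polymerases and nucleotide supply. Cyclins A and B with CDK1 drive entry into mitosis, and many mitotic genes carry paired CCAAT and CHR promoter elements, the CHR being bound by a repressor complex in resting cells. Hepatocytes in a growing liver are mostly at rest and re-enter the cycle as the organ enlarges or after injury. Iron enters this machinery directly: the small subunit of ribonucleotide reductase holds an iron centre, and the replicative polymerases and the primase carry iron-sulphur clusters.

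The upstream sequences of 6 members are shown because they hold, between them, each of the promoter motifs counted in the next paragraph. Each is the 150 bases before the annotated gene start in the RefSeq genome Sscrofa11.1, read 5′ to 3′ on the strand of the gene, with every match to a searched motif that lies whole within it in capitals. The motifs were TTTGAA (the CHR element), CCAAT, and an E2F set of TTTCCCGC, TTTCGCGC, TTTGCCGC and TTTGGCGC, on both strands, so ATTGG, GCGCCAAA and GCGCGAAA in these runs are reverse matches. CDK1 lies at chr14:64233795-64233944 (plus strand), CCNB1 at chr16:47338089-47338238 (plus strand), MKI67 at chr14:137296313-137296462 (minus strand), TOP2A at chr12:22001150-22001299 (plus strand), MCM6 at chr15:15923488-15923637 (plus strand) and RRM2 at chr3:126367146-126367295 (minus strand).
CDK1: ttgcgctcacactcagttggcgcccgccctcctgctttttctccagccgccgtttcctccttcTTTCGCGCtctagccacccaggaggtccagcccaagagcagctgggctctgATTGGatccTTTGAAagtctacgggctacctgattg
CCNB1: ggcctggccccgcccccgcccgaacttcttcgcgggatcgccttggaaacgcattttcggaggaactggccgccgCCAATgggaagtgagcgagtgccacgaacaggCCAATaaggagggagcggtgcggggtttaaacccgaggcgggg
MKI67: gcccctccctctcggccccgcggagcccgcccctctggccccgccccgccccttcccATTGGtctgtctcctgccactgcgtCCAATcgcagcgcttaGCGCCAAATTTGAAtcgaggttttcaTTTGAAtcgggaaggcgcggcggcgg
TOP2A: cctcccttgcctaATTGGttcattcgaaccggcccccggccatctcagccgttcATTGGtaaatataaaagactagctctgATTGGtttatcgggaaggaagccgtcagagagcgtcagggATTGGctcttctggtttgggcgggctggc
MCM6: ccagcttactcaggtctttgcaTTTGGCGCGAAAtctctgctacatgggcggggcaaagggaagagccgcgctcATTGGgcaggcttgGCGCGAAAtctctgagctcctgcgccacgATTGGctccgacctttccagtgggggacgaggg
RRM2: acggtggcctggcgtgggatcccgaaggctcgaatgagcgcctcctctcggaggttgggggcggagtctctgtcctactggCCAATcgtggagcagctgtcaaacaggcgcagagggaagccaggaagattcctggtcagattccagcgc
In CDK1 and MKI67 the letters of the CHR, of CCAAT and of the E2F set all stood within this stretch. CCNB1, TOP2A and RRM2 held CCAAT alone there, and in MCM6 forward and reverse E2F letters overlapped in 1 run.

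In windows from 250 bases before to 50 bases after the start, which could be read for all 40 members, 12 members (30%) held the CHR letters against 14.5% of 20650 promoters of the annotation. CCAAT stood in 25 members (62.5%) against 35.7% of all promoters, and the E2F set in 8 members (20.0%) against 3.24%. Among the 16 mitotic members, 9 held the CHR letters, 13 held CCAAT and 3 held the E2F set, whereas among the 17 members of replication and nucleotide supply 2 held the CHR letters, 10 held CCAAT and 5 held the E2F set. None of the 7 G1 and inhibitor members held an E2F match, and CCND2 was the one among them with the CHR letters. In the 250 bases before the start alone, the CCAAT share was 45.0% of members against 32.0% of all promoters. The CHR share there was 22.5% against 13.0%, and the E2F share 17.5% against 2.71%. Of the 16 mitotic members 6 then held the CHR letters, 9 held CCAAT and 3 held the E2F set. For the 17 replication and nucleotide members these numbers were 2, 7 and 4. A match says only that the letters are present, and the annotated start may lie away from the start used in liver.

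**Figure D1:**
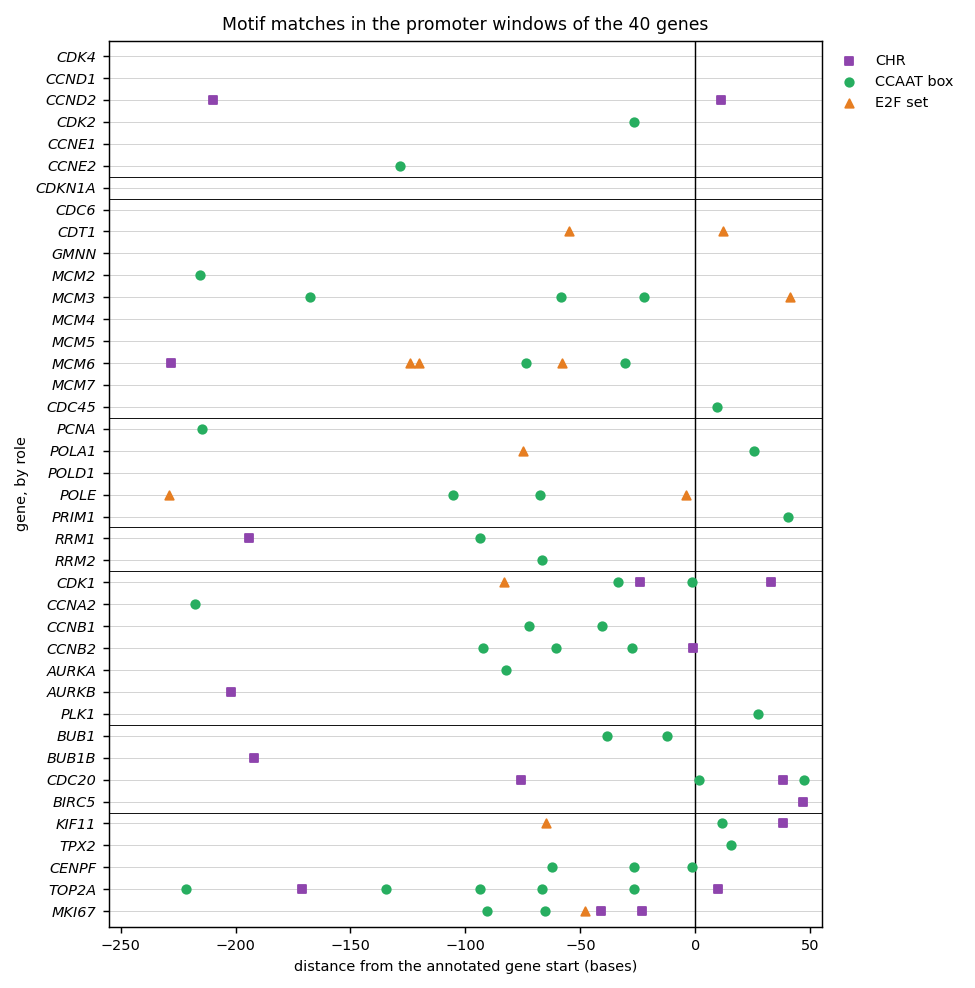
Each row is 1 of the 40 genes, ordered by role, and each symbol is a match to the CHR, CCAAT or E2F letters on either strand, placed by its distance in bases from the annotated gene start (vertical line, window from 250 before to 50 after). The CHR letters occur in 9 of 16 mitotic genes in the lower part of the plot and in 2 of 17 replication and nucleotide genes in the middle.

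The values behind these genes were mostly low. CDK4 had the highest mean, 32.2 FPKM, followed by RRM1 at 13.4, GMNN at 12.8, PCNA at 11.0, CDKN1A at 9.07, MCM7 at 8.85 and CCND1 at 7.54 FPKM. The mitotic genes lay near 1 FPKM, with CDK1 at 1.15, MKI67 at 1.07 and CCNB1 at 0.883 FPKM, and only BIRC5 and TOP2A among them had means of 2 FPKM or more. The 4 members below 0.5 FPKM, which were left out of the test, were BUB1 at 0.464, POLE at 0.360, CDT1 at 0.307 and CDC6 at 0.101 FPKM. Of the 40 members, 39 were above 0 in all 9 libraries, and CCNB1 was listed at 0 in high-iron replicate 2.

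**Figure D2:**
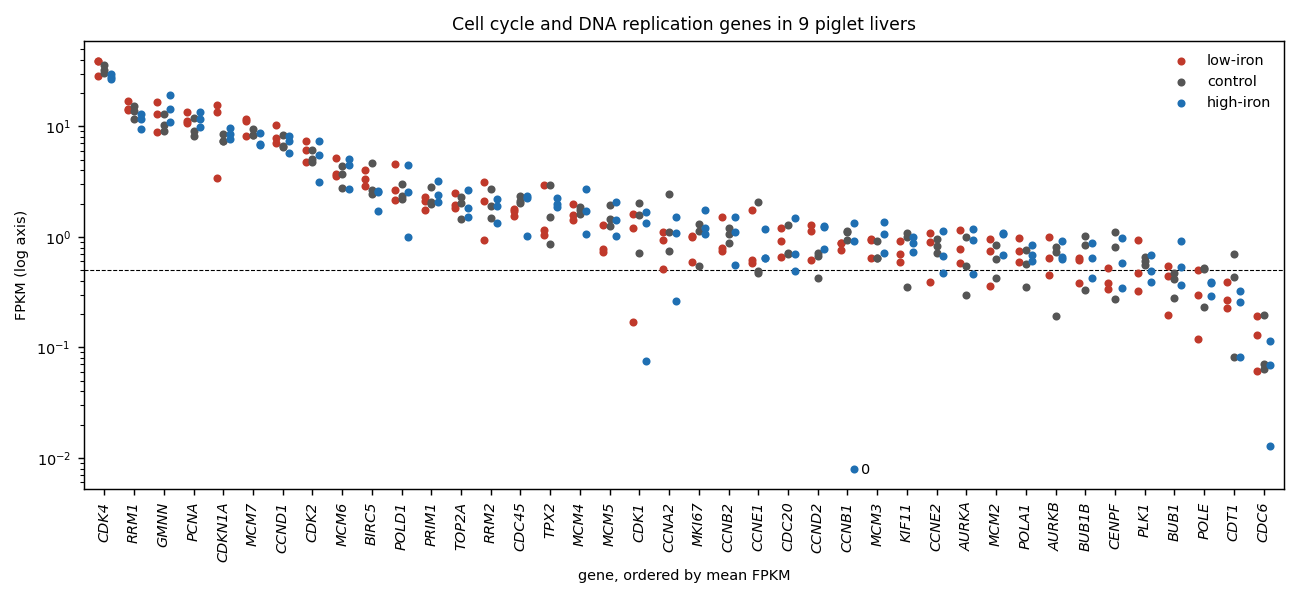
FPKM of the 40 genes on a log axis in each of the 9 libraries, coloured by diet, with the genes ordered by mean and a dashed line at 0.5 FPKM. The points of the 3 diets overlap for most genes, and the point marked 0 is CCNB1 in high-iron replicate 2, which is drawn at the foot of the axis.

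The summed FPKM of all genes was 416922 to 456420 per library. The table holds no counts and its low values showed no steps of whole reads. The reads behind a single value are thus not known, and precision rests on the spread between pigs. The study does list clean and mapped reads for each library, and high-iron replicate 2 had the most of both. The liver label was checked on 8 hepatocyte genes (ALB, APOB, TTR and others), whose summed level was 60762 to 88694 FPKM. Macrophage markers, 8 of 8 of which had higher means in the high-iron than in the control group and 0 of which were called, summed to 538 to 757 FPKM in the control, 641 to 786 in the low-iron and 831 to 1060 in the high-iron livers. Endothelial markers (7 of 7 higher, 1 called) summed to 108 to 111, 105.6 to 151 and 148 to 156 FPKM in the same order. For stellate cells 6 of 7 markers were higher and 2 were called, with sums of 89.4 to 122 FPKM in the control, 87.4 to 178 in the low-iron and 128 to 241 in the high-iron livers. T and NK cell markers (8 of 8 rows for 7 genes higher, 2 called) summed to 16.5 to 25.9, 17.2 to 23.6 and 26.9 to 46.4 FPKM in the control, low-iron and high-iron livers. B and plasma cell markers (4 of 5 tested higher, 0 called) summed to 11.6 to 25.0, 6.26 to 14.1 and 16.4 to 31.1 FPKM in that order, and bile duct markers (4 of 5 higher, 0 called) to 11.4 to 32.2, 13.2 to 35.2 and 27.4 to 42.3 FPKM. The erythroid sum was 212 to 1452 FPKM in the control, 478 to 2455 in the low-iron and 351 to 841 in the high-iron livers, with KLF1 (a transcription factor of red cell precursors) and RHAG (a red cell membrane protein) listed at 0 in all 9 libraries. For high-iron against low-iron 1 marker each of bile duct, stellate, T and NK, and B and plasma cells was called, all higher, against 1.54% of all tested genes, and for low-iron against control 1 T and NK cell marker against 0.882%. For high-iron against control, where the calls above were made, the share was 1.57%. The part of these cells in the values of the cell cycle genes was not tested. High-iron replicate 2 stood apart for the cell cycle genes, and differences that its removal changed in sign or by over 1.5 times are also given without it where they are printed for a single gene.

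None of the 36 tested cell cycle and replication genes was called in any of the 3 diet comparisons. With limma on log2(FPKM + 0.1) and a call set at a 2-fold or larger difference with unadjusted p under 0.05, 0 of 36 members were called for low-iron against control, where 0.882% of all tested genes were called. For high-iron against control 0 of 36 were called against 1.57% of all tested genes, and for high-iron against low-iron 0 of 36 against 1.54%. At such shares any 36 genes would hardly hold a call, so nothing about the members is read from its absence. After Benjamini-Hochberg adjustment over all tested genes, 0 members passed 0.05, against 0.00%, 0.00795% and 0.00% of all tested genes in the 3 comparisons. At an unadjusted p under 0.05 alone the members numbered 0, 0 and 1, against 3.68%, 5.59% and 7.15% of all tested genes. This member was MCM7. In bulk liver RNA, fewer cells of a type and less RNA per cell cannot be told apart, and this holds for every value given here.

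As a list, the members had median differences near 0. The median of their log2 differences was 0.07 for low-iron against control, -0.04 for high-iron against control and -0.03 for high-iron against low-iron, beside 0.08, 0.10 and 0.03 over all tested genes. Of the 36 members, 20, 15 and 15 had higher means in the group named first, which is 55.6%, 41.7% and 41.7%, beside 62.7%, 65.0% and 53.6% of all tested genes. The lowest and highest differences were -0.76 (CDK1) and 0.63 (CCND2), -1.14 (CCNB1) and 0.75 (CCND2), and -0.84 (CCNB1) and 0.62 (MCM5). Without high-iron replicate 2 those of CCNB1 were 0.06 for high-iron against control and 0.35 for high-iron against low-iron.

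A missed threshold does not show that the diets left these genes alike, and the 95% intervals give the sizes the data allow. The interval lay within a 2-fold change either way for 17 of 36 members in low-iron against control, for 13 in high-iron against control and for 17 in high-iron against low-iron. The median half-width was 0.89 on the log2 scale, from 0.39 for CDK4 to 2.03 for CDK1. Intervals within 1.5-fold were found for CDK4 and RRM1 in the first comparison, CCND1 in the second and PCNA in the third. The log2(FPKM + 0.1) scale understates changes of the lowest genes.

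**Figure D3:**
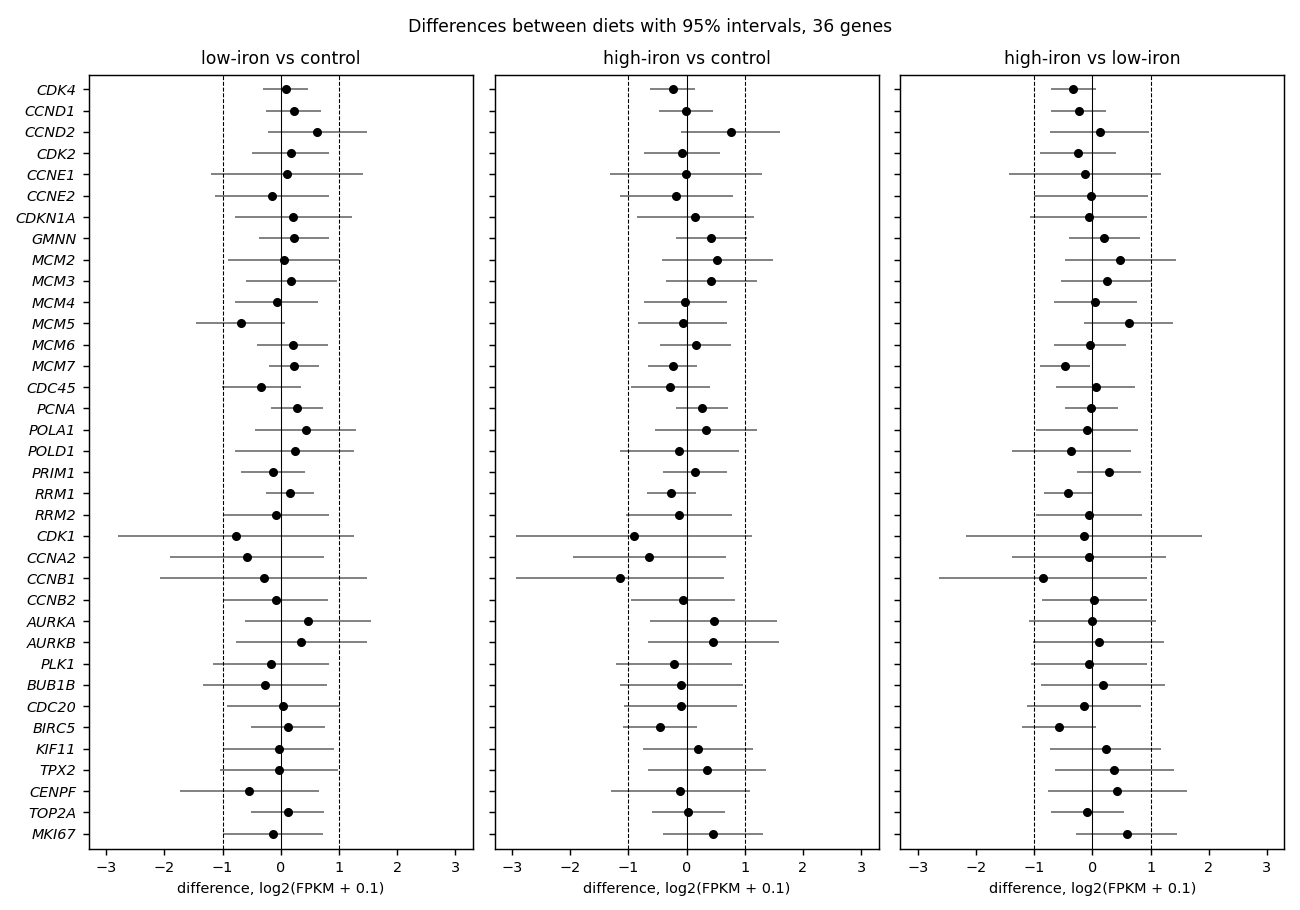
Points are the differences of group means on the log2(FPKM + 0.1) scale for 36 genes and 3 comparisons, bars are 95% intervals from limma, and dashed lines mark a 2-fold change. All intervals but that of MCM7 in the comparison of the high-iron with the low-iron group include 0, and the widest are those of CDK1.

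Among the G1 genes, CCND1 (cyclin D1, which carries growth signals to CDK4) was at 10.2, 7.11 and 7.84 FPKM in the low-iron, 6.45, 8.30 and 6.62 FPKM in the control and 5.73, 8.17 and 7.41 FPKM in the high-iron livers. The groups overlapped, and the difference was 0.22 (SE 0.21) for low-iron against control and -0.01 (SE 0.21) for high-iron against control, which was 0.13 without high-iron replicate 2. CCND2 (cyclin D2) was at 1.12, 1.29 and 0.615 FPKM in the low-iron, 0.421, 0.717 and 0.670 FPKM in the control and 1.24, 0.771 and 1.25 FPKM in the high-iron livers. All 3 high-iron values lay above all 3 control values, while the low-iron values spanned both. Its difference for high-iron against control was 0.75 (SE 0.39), with a 95% interval of -0.10 to 1.61 and a limma Benjamini-Hochberg adjusted p of 0.908. CDK4, the partner of the D cyclins, was lower in every high-iron liver (26.6 to 29.6 FPKM) than in every control liver (30.6 to 36.2 FPKM), with a difference of -0.24 (SE 0.18) and an adjusted p of 0.935 in limma. CDK2, the kinase of the G1 to S transition, ranged from 3.14 to 7.37 FPKM, CCNE1 from 0.468 to 2.08 and CCNE2 from 0.391 to 1.13 FPKM, with overlapping groups in each comparison. CCNE2 shares 26.8% of its exon bases with INTS8 on the opposite strand, so its value is uncertain.

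CDKN1A (p21, the CDK inhibitor induced by p53) was at 3.43, 13.4 and 15.6 FPKM in the low-iron, 7.35, 8.57 and 7.31 FPKM in the control and 7.66, 8.50 and 9.71 FPKM in the high-iron livers. Low-iron replicate 2 was the lowest of all 9 libraries and low-iron replicates 3 and 7 the highest pair, so the low-iron group lay on both sides of the others. The difference for low-iron against control was 0.22 (SE 0.45), and without low-iron replicate 2 it was 0.90 (SE 0.20). That value was still under the 2-fold limit of the call rule, with a limma p of 0.00149 before and 1.00 after Benjamini-Hochberg adjustment. For high-iron against low-iron the difference was -0.07 (SE 0.45), and without that library -0.75 (SE 0.20, adjusted p 0.73), while without high-iron replicate 2 it was 0.01. Among the wider lists, 0 of 3 tested CDK inhibitors and 0 of 13 tested p53 targets were called in each comparison. The shares of all tested genes were 0.882% for low-iron against control, 1.57% for high-iron against control and 1.54% for high-iron against low-iron. At such shares so few genes would hardly hold a call, so nothing is read from their absence.

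Of the genes that load and open the replication origins, 8 of 10 were tested. MCM7, a subunit of the MCM helicase, was at 8.24, 11.6 and 11.3 FPKM in the low-iron, 8.37, 9.50 and 8.43 FPKM in the control and 8.63, 6.79 and 6.88 FPKM in the high-iron livers. High-iron replicates 7 and 8 lay below every other library, and high-iron replicate 2 was inside the control range. The difference for high-iron against low-iron was -0.47 (SE 0.19), with a 95% interval of -0.89 to -0.04, an unadjusted limma p of 0.0355 and an adjusted p of 0.678. An exact permutation test of F over the 3 groups gave p = 0.0786. MCM7 shares 7.45% of its exon bases with AP4M1 on the opposite strand.

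MCM5, another helicase subunit, was at 1.28, 0.781 and 0.730 FPKM in the low-iron, 1.93, 1.45 and 1.25 FPKM in the control and 1.014, 2.06 and 1.43 FPKM in the high-iron livers. Low-iron replicates 3 and 7 were the lowest pair, and low-iron replicate 2 lay within the other groups. Its difference was -0.69 (SE 0.34) for low-iron against control, adjusted p 1.00 by limma, and 0.62 (SE 0.34) for high-iron against low-iron, adjusted p 0.759. MCM2 was at 0.744, 0.950 and 0.356 FPKM in the low-iron, 0.847, 0.428 and 0.628 FPKM in the control and 1.05, 1.09 and 0.689 FPKM in the high-iron livers and overlapped in all groups, with low-iron replicate 7 the lowest, and had a difference for high-iron against control of 0.53 (SE 0.43). MCM3, MCM4 and MCM6 had means of 0.876, 1.74 and 3.94 FPKM, and their differences lay between -0.07 and 0.42 in the 3 comparisons. The 6 helicase subunits thus did not lie in the same direction in any comparison: for high-iron against low-iron MCM2 and MCM5 had higher means and MCM7 a lower mean, under each scaling tried, and MCM4 and MCM6 lay at 0.05 and -0.05, with 0 called. Without high-iron replicate 2 these were 0.37 and 0.21.

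CDC45, which joins the MCM ring to form the active helicase, was at 1.54, 1.72 and 1.80 FPKM in the low-iron, 2.10, 2.32 and 2.03 FPKM in the control and 1.02, 2.32 and 2.23 FPKM in the high-iron livers. All low-iron values lay below all control values, but high-iron replicate 2 was lower than any of them. The difference for low-iron against control was -0.33 (SE 0.31), adjusted p 1.00 in limma. For high-iron against control it was -0.28 (SE 0.31), and 0.08 without high-iron replicate 2. GMNN (geminin, the inhibitor of the licensing factor CDT1) was at 13.0, 8.95 and 16.6 FPKM in the low-iron, 9.04, 10.3 and 13.0 FPKM in the control and 19.0, 10.9 and 14.2 FPKM in the high-iron livers, highest in high-iron replicate 2 and overlapping throughout. The difference for high-iron against control was 0.43 (SE 0.27), and 0.22 without that library. CDT1 itself was at 0.389, 0.268 and 0.229 FPKM in the low-iron, 0.433, 0.0814 and 0.701 FPKM in the control and 0.0823, 0.324 and 0.258 FPKM in the high-iron livers and CDC6, which loads the MCM ring, at 0.194, 0.129 and 0.0616 FPKM in the low-iron, 0.198, 0.0631 and 0.0700 FPKM in the control and 0.0129, 0.114 and 0.0686 FPKM in the high-iron livers. Both lay under the limit for testing in the mean, and their groups overlapped.

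At the fork, PCNA (the sliding clamp of the polymerases) was at 11.06, 13.6 and 10.6 FPKM in the low-iron, 11.9, 8.22 and 9.13 FPKM in the control and 11.6, 13.5 and 9.85 FPKM in the high-iron livers. The values overlapped, and the 95% interval of the difference for high-iron against low-iron was -0.47 to 0.43, which made PCNA the member whose interval stayed within 1.5-fold for that pair of groups. POLD1, the catalytic subunit of polymerase delta, was at 2.17, 4.52 and 2.64 FPKM in the low-iron, 2.33, 2.22 and 3.01 FPKM in the control and 0.997, 4.51 and 2.57 FPKM in the high-iron livers. It was lowest in high-iron replicate 2 and highest in low-iron replicate 3 and high-iron replicate 7, and the difference for high-iron against low-iron was -0.36 (SE 0.46). It was 0.19 without high-iron replicate 2 and -0.84 without high-iron replicate 7, so its sign rests on 1 library. POLA1 and PRIM1, which make the primers, had means of 0.682 and 2.30 FPKM and differences from -0.14 to 0.43. POLE, the leading-strand polymerase, ranged from 0.118 to 0.527 FPKM and was not tested.

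Ribonucleotide reductase makes deoxynucleotides, with RRM1 as the large subunit and RRM2 as the small, iron-holding subunit. RRM1 was at 17.0, 14.3 and 13.99 FPKM in the low-iron, 15.2, 13.9 and 11.8 FPKM in the control and 9.41, 11.7 and 13.0 FPKM in the high-iron livers. Every high-iron value lay below every low-iron value, with group means of 15.1 ± 1.67 FPKM (SD, n = 3) in the low-iron, 13.6 ± 1.71 in the control and 11.4 ± 1.81 in the high-iron livers. The difference for high-iron against low-iron was -0.41 (SE 0.19), 95% interval -0.83 to 0.00, adjusted p 0.701 in limma, and the exact permutation test of F over the 3 groups gave p = 0.0750. RRM2 was at 2.13, 3.14 and 0.934 FPKM in the low-iron, 1.89, 2.71 and 1.47 FPKM in the control and 1.35, 2.19 and 1.91 FPKM in the high-iron livers. The low-iron group held both the highest and the lowest of the 9 values, and the differences were -0.08 (SE 0.41) for low-iron against control and -0.13 (SE 0.41) for high-iron against control. Without low-iron replicate 7 the difference was 0.38 for low-iron against control and -0.52 for high-iron against low-iron, and without high-iron replicate 2 that for high-iron against control was 0.05.

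Among the mitotic cyclins and kinases, CDK1 was at 0.170, 1.202 and 1.60 FPKM in the low-iron, 2.03, 0.714 and 1.57 FPKM in the control and 0.0750, 1.69 and 1.33 FPKM in the high-iron livers. Low-iron replicate 2 and high-iron replicate 2 were far below the other 7 libraries, and those 7 overlapped across the diets. The difference was -0.76 (SE 0.92) for low-iron against control and -0.90 (SE 0.92) for high-iron against control. Without low-iron replicate 2 the first was 0.06, and without high-iron replicate 2 the second was 0.16. CCNB1 (cyclin B1, the partner of CDK1) was at 0.758, 0.883 and 0.889 FPKM in the low-iron, 1.11, 1.12 and 0.942 FPKM in the control and 0, 1.33 and 0.912 FPKM in the high-iron livers. Each low-iron value was below each control value, and the high-iron group held the highest value, 1.33 FPKM, as well as the listed 0. The difference for high-iron against control was -1.14 (SE 0.81) with a pseudocount of 0.1, -0.32 with 1 and -2.21 with 0.01, so its size rests on the constant added to that 0. Without high-iron replicate 2 it was 0.06, and without high-iron replicate 7 it was -1.86 and passed the call rule.

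CCNA2 (cyclin A2) ranged from 0.261 to 2.43 FPKM and CCNB2 (cyclin B2) from 0.557 to 1.52 FPKM, both lowest in high-iron replicate 2. The Aurora kinases AURKA and AURKB, which act at the spindle poles and at the centromeres, were lowest in control replicate 5 at 0.297 and 0.192 FPKM. Their differences for high-iron against control were 0.46 (SE 0.49) and 0.46 (SE 0.51), and without high-iron replicate 2 they were 0.81 and 0.31. AURKA shares 8.97% of its exon bases with CSTF1 on the opposite strand. PLK1, a kinase of mitotic entry, ranged from 0.323 to 0.934 FPKM with overlapping groups.

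BIRC5 (survivin, which directs AURKB to the centromere) was at 4.06, 3.36 and 2.91 FPKM in the low-iron, 4.70, 2.64 and 2.45 FPKM in the control and 1.71, 2.56 and 2.59 FPKM in the high-iron livers. Every high-iron value was below every low-iron value, and control replicate 4 held the highest. The difference for high-iron against low-iron was -0.58 (SE 0.29), adjusted p 0.731 in limma. BUB1B and CDC20, which hold and release the anaphase block, had differences from -0.27 to 0.18. BUB1, their partner at the kinetochore, ranged from 0.195 to 0.924 FPKM and was not tested.

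MKI67 (Ki-67, the standard marker of cycling cells) was at 1.00, 1.014 and 0.588 FPKM in the low-iron, 1.30, 1.13 and 0.544 FPKM in the control and 1.07, 1.21 and 1.77 FPKM in the high-iron livers. Each high-iron value lay above each low-iron value, and the control group overlapped both, from 0.544 to 1.30 FPKM. The difference was 0.59 (SE 0.39) for high-iron against low-iron, adjusted p 0.808 in limma, and 0.46 (SE 0.39) for high-iron against control. TOP2A (topoisomerase II alpha, which untangles replicated chromosomes) was at 1.92, 2.52 and 1.83 FPKM in the low-iron, 2.31, 2.03 and 1.45 FPKM in the control and 1.502, 1.82 and 2.66 FPKM in the high-iron livers. All 3 groups overlapped, and the difference for high-iron against low-iron was -0.09 (SE 0.28), and 0.08 without high-iron replicate 2. KIF11 and TPX2, which build the spindle, and CENPF, a kinetochore protein, had differences between -0.54 and 0.43.

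**Figure D4:**
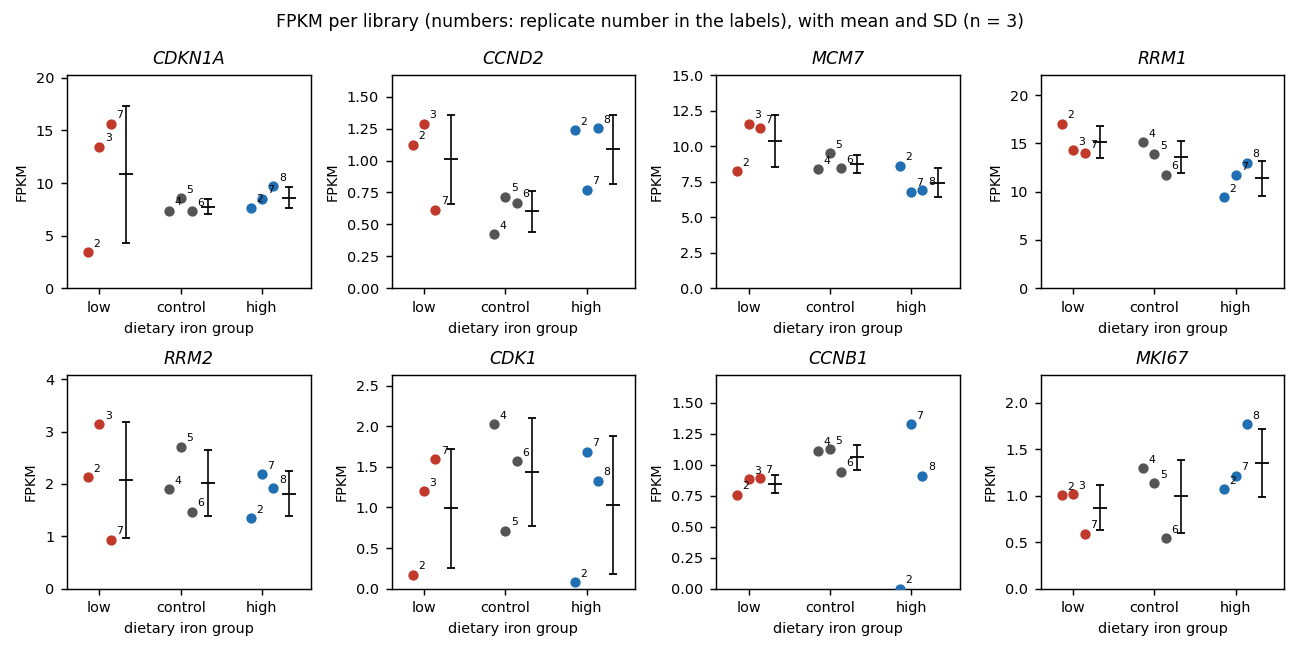
FPKM of 8 genes in each library by diet, with the replicate number beside each point and the mean and SD (n = 3) as bars. No bar is drawn for CCNB1 in the high-iron group, where 1 library is listed at 0, and CDK1 is far lower in low-iron replicate 2 and high-iron replicate 2 than in the other 7 libraries.

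Groups that did not overlap were found for few members. For low-iron against control these were CDC45 and CCNB1, both lower in the low-iron livers, 2 of 36 against 8.34% of all tested genes. For high-iron against control they were CDK4, lower, and CCND2, higher, in the high-iron livers, again 2 of 36 against 10.9%. For high-iron against low-iron they were RRM1 and BIRC5, lower, and MKI67, higher, in the high-iron livers, 3 of 36 against 13.2%. These counts are near what the shares of all tested genes would give for 36 genes, so no trait of the members is read from them. For a single gene, 3 livers against 3 cannot give an exact two-sided permutation p under 0.1, and over the 3 groups the lowest permutation p of F among the 17 members tested in this way were those of RRM1 and MCM7, followed by MCM5 at 0.171. For MKI67 it was 0.321, for CDK1 0.743, for PCNA 0.321 and for RRM2 0.975. Some of the 17 were chosen for a small limma p in these same data, and the permutation p were not adjusted over them.

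For most members, most of the variation lay between pigs of the same diet. With 3 groups of 3 pigs this holds for most genes even where diet has no effect, so it is not read as a trait of the members. MCM7, RRM1 and CDK4 had more, with 57.65%, 53.87% and 50.67% of the variance between the diets. How many of all tested genes had shares as high was not counted. The median share of a member's variance that lay between the diets was 15.4%, beside 20.5% over all tested genes. The median SD over the 9 libraries was 0.45 on the log2 scale beside 0.35. Most members had low levels, and their spread was not compared with that of genes of like level. High-iron replicate 2 had the lowest value of the 9 libraries for 13 of 36 members, among them CDK4, CCND1, CDK2, RRM1, POLD1, CDK1, CCNA2, CCNB1, CCNB2 and BIRC5, and the highest for GMNN alone. Its median deviation from the gene means was -0.33 on the log2 scale over the members and -0.06 over all tested genes. High-iron replicate 7, of the same diet, had the highest value for 10 members, including MCM2, MCM3, MCM4, MCM5 and CDC45, with a median deviation of 0.27 over the members and 0.12 over all tested genes, and low-iron replicate 3 the highest for 8. Control replicate 6 was lowest for 7 members, MKI67, TOP2A, KIF11 and CENPF among them.

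**Figure D5:**
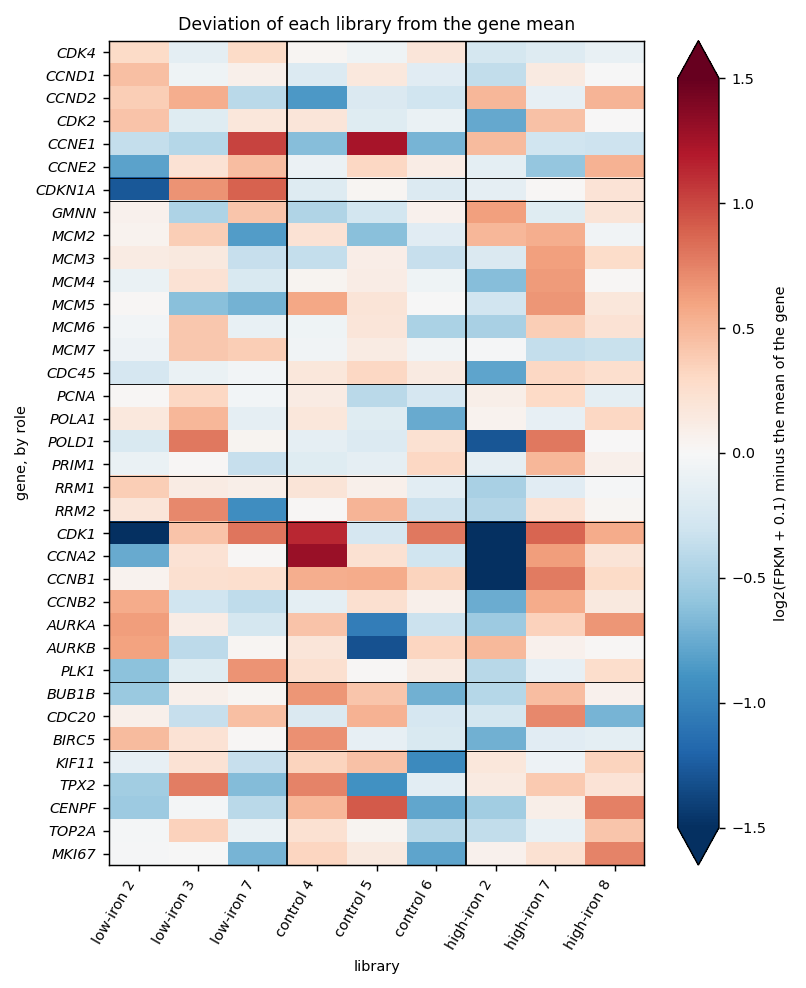
Each cell is the log2(FPKM + 0.1) value of a gene in a library minus the gene's mean over the 9 libraries, for 36 genes ordered by role, with black lines between diets and between roles (colours are saturated beyond -1.5 and 1.5). High-iron replicate 2 is low for CDK1, CCNA2, CCNB1 and POLD1, whereas high-iron replicate 7 is high for most replication genes.

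Without high-iron replicate 2 the median member difference was 0.20 for high-iron against control, with 28 of 36 members higher, beside 0.17 and 73.2% higher over all tested genes. For high-iron against low-iron it was 0.16, with 25 of 36 higher, beside 0.09 and 61.5%. Again 0 members were called in either, beside 1.79% and 2.16% of all tested genes, and 0 and 2 had an unadjusted limma p under 0.05, beside 5.54% and 7.44%. The 2 were MCM5 at 0.86 (adjusted p 0.648) and MCM7 at -0.58 (adjusted p 0.641). The 7 mitotic cyclins and kinases had a median of -0.22 for high-iron against control with that library and 0.16 without it. For high-iron against low-iron the medians of these genes were -0.05 and 0.35, and those of the 8 licensing and origin genes 0.13 and 0.38.

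Across the 9 livers, 5 pairs of members were compared. CDK1 and CCNB1, the subunits of the mitosis-promoting kinase, had Pearson r = 0.775 (exact permutation p = 0.00725, adjusted over the 5 pairs 0.0362) and Spearman rho = 0.667 (permutation p = 0.0589, adjusted 0.27). Without high-iron replicate 2 and low-iron replicate 2 r was 0.0619, so the relation rests on those 2 libraries. MKI67 and TOP2A had r = 0.66 (permutation p = 0.0479, adjusted 0.12) and rho = 0.583 (permutation p = 0.108, adjusted 0.27), with r = 0.522 without control replicate 6 and low-iron replicate 7. For MCM2 and MCM6 r was 0.114 and rho 0.267, for CDT1 and GMNN -0.286 and -0.3, and for CDKN1A and CCND1 -0.36 and 0.0667. Their permutation p were 0.773, 0.455 and 0.335 for r and 0.493, 0.437 and 0.88 for rho, and without the pair of libraries farthest from the median r was 0.288, -0.746 and 0.323. Diet was not removed from these values, and with 9 libraries a group of 3 holds too few for a value within a diet.

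The wider cell cycle was covered by 142 other genes in lists for licensing, the fork, nucleotide supply, G1 control, CDK inhibitors, mitosis and p53 targets, of which 110 were tested. Their median differences were 0.03, 0.08 and -0.000667 for low-iron against control, high-iron against control and high-iron against low-iron, and 60, 67 and 55 of 110 had higher means in the group named first, beside 62.7%, 65.0% and 53.6% of all tested genes. The call rule was passed by 0, 0 and 1 of them, beside 0.882%, 1.57% and 1.54% of all tested genes, and 0 passed the Benjamini-Hochberg adjustment in limma. An unadjusted limma p under 0.05 was found for 5, 4 and 7 of the 110, beside 3.68%, 5.59% and 7.15% of all tested genes. The called gene was CDCA8 (borealin, which sits with BIRC5 and AURKB at the centromere). It was at 0.508, 0.407 and 0.110 FPKM in the low-iron livers (mean 0.342) and 0.632, 0.847 and 0.768 FPKM in the high-iron livers (mean 0.749). Control livers were at 0.760, 0.636 and 0.526 FPKM and overlapped the high-iron livers. The lowest value, that of low-iron replicate 7, lay near the added constant of 0.1. The difference for high-iron against low-iron was 1.07 (SE 0.48), with a limma p of 0.0496 before and 0.698 after adjustment. Without high-iron replicate 2, the lowest of the high-iron livers for this gene, the difference was larger, 1.17 (SE 0.55), and with fewer libraries in the fit the limma p was 0.0606 before and 0.674 after adjustment, so the gene was no longer called. In that fit 0 of 110 were called in either comparison with the high-iron group, beside 1.79% and 2.16% of all tested genes, and 5 in each had an unadjusted p under 0.05, beside 5.54% and 7.44%.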

How the data were processed

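Per the study's methods, the authors discarded reads that held adapter or poly-N sequence or were of low quality, mapped the rest to the Sscrofa11.1 assembly using Hisat2 (2.0.1), built transcripts with StringTie (version not given in the sources used here) and deposited one table of FPKM values for the 9 libraries. No scaling between libraries beyond FPKM, strand setting or annotation release is stated for it. FPKM divides by length and by the library total, so a few very abundant liver transcripts can shift all others. The numbered identifiers were read as the serial number, counted from 0, of each gene or pseudogene in NCBI annotation release 106 of Sscrofa11.1. All 20660 numbered rows fell on protein-coding genes, against 15031 when shifted by 1 in either direction. The 5258 new genes were tested but carry no name.

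The scale of analysis was log2(FPKM + 0.1), for genes with a mean of at least 0.5 FPKM, in 1 limma fit (3.58.1, R 4.3.3; empirical Bayes with trend) of the 3 diets with 6 residual degrees of freedom and no covariate. A call needed a 2-fold or larger difference with unadjusted p under 0.05, with Benjamini-Hochberg adjustment over all 12584 tested genes beside it. The 2 thresholds of the call are the study's own. The study applied them with DESeq2, a different test, so its genes need not be those called here. Single members were also tested by exact two-sided permutation over libraries (Python 3.11.15, scipy 1.17.1, numpy 2.4.6, pandas 2.3.3). Replicates are separate pigs. Members were given by library where called, where among the 2 with the smallest limma p in each direction of a comparison, or where on a list of 10 (MKI67, TOP2A, CDK1, CCNB1, PCNA, MCM2, RRM2, POLD1, CCND1, CDKN1A), and other cell cycle genes were named where called. CDK4 falls outside this rule and is given because its groups did not overlap, and CDT1 and CDC6 because they were not tested. The members and lists were chosen with earlier results of these data known. Promoter windows were read from the RefSeq genome of the same build. Scripts were tested on simulated data. Alternatives covered the pseudocount, the filter, scaling, library weights, EIF1AY (a Y-linked gene, since both sexes were fed and labels give no sex) as a covariate, a replicate block and leaving out each library. Leaving out high-iron replicate 2 for the roles and the wider lists was added after the data were seen.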

Additional observations from a re-analysis of the deposited data

How the results depend on the processing

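Of 1233 values recomputed under alternatives, 1186 stayed within their spread or on their side of the threshold, 46 moved, 1 passed the threshold and 0 called values reversed, while 77 of 976 values of uncalled members changed sign. Some of these values could not change, so the tally overstates stability. Leaving out a library does not alter a difference between groups it is not part of, nor does fitting only the groups compared. With 0 members called in the main fit, a called value had little room to reverse. Leaving out 1 library at a time, the median member difference ranged from -0.05 to 0.10 for low-iron against control, from -0.13 to 0.20 for high-iron against control (0.20 without high-iron replicate 2) and from -0.11 to 0.16 for high-iron against low-iron. The number of members called ranged from 0 to 0, from 0 to 1 and from 0 to 0, the 1 being CCNB1 without high-iron replicate 7. Replicate numbers 2 and 7 occur in both the low-iron and high-iron groups, but their deviations correlated at 0.0183 and 0.0213, so the numbers were not taken as pairs. With a replicate block the median member difference for high-iron against low-iron was -0.04, with 0 members called, and 458 genes were called instead of 194. Genes called numbered 111, 197 and 194 in the 3 comparisons, 34, 74 and 67 with a pseudocount of 1, and 331, 504 and 458 with no filter. With library weights they numbered 171 for low-iron against control and 334 for high-iron against low-iron. Without low-iron replicate 2, control replicate 5 or control replicate 6 the low-iron comparison with control gave 188, 211 and 169, without control replicate 4 the high-iron comparison with control gave 298, and without low-iron replicate 3 the high-iron comparison with low-iron gave 332. Of the genes called, 75, 160 and 127 were higher in the group named first, against 53 of 100, 96 of 153 and 105 of 185 under median-of-ratios scaling and 52 of 110, 82 of 141 and 91 of 183 under quantile normalization. The member median for high-iron against control was -0.16 and -0.21 under these scalings, 0.08 with library weights and 0.02 with EIF1AY as a covariate, each with 0 members called. The causes were not tested. With 3 pigs a group and no read counts for single genes, the 95% interval reached a 2-fold change for 19, 23 and 19 of 36 members.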
